A study of Mus musculus with 6 samples.

Results

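The 36 genes described here carry out or control DNA replication, and they were read on microarrays of mouse embryonic fibroblasts of 3 Foxd1 genotypes, taken during reprogramming. They were picked by name for their textbook roles in S phase, with earlier results of these data already known. They hold 9 genes that license replication origins, 5 that activate the replicative helicase, 11 that work at the replication fork, 4 that supply nucleotides, 4 that control entry into S phase and 3 that rebuild chromatin behind the fork. All 36 were measured, out of 19938 genes with their own probe set. DNA replication is prepared in G1, when the origin recognition complex, Cdc6 and Cdt1 load the ring of Mcm2 to Mcm7 onto DNA. On entry into S phase, Cdc45 and the GINS complex join the ring to form the active helicase, and polymerases, clamp, clamp loader and ligase follow it. Many of these genes are transcribed under E2F factors, which cyclin E with Cdk2 releases from the retinoblastoma family, so that their transcripts are abundant in cultures with many dividing cells.

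The cells were fibroblasts grown from embryos of Foxd1+/+, Foxd1+/- or Foxd1-/- genotype, where Foxd1 is a forkhead transcription factor. Every culture, controls included, received retroviruses for Oct4, Sox2 and Klf4, the factors that drive fibroblasts towards pluripotency, and RNA was taken on day 8, so there is no uninfected group. Each genotype had 2 arrays, numbered as biological replicates 1 and 2, and pairs of values below run in that order. Whether replicates were separate embryos, how the allele was made and which stretch of Foxd1 it lacks are not in the labels. Foxd1+/+ cells carry both copies of the gene, Foxd1+/- cells 1 and Foxd1-/- cells none. Values are intensities on a linear scale. Differences are on the scale of log2(intensity + 1), with the standard error (SE) of limma, a linear model fitted to all 19938 genes on 6 arrays.

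The label check gave Foxd1 intensities of 1907 and 1169 on the Foxd1+/+ arrays, 1014 and 2074 for Foxd1+/-, and 189 and 213 for Foxd1-/-, so the array labelled Foxd1+/- replicate 2 held more Foxd1 than either Foxd1+/+ array. Pou5f1, the gene of Oct4, read 580.3 and 138 with both Foxd1 copies, 331 and 298 with 1 copy, and 348 and 145 with none, and the lowest values were those of replicate 2 of Foxd1+/+ and Foxd1-/-. Sox2 read 163 and 111 with both Foxd1 copies, 124 and 83.0 with 1 copy, and 135 and 93.0 with none, lower in replicate 2 of each genotype. Klf4 read 261 and 275 with both Foxd1 copies, 254 and 258 with 1 copy, and 268 and 306 with none, higher in replicate 2 of each. Xist, which marks female cells and was looked up after its values were seen, read 514 and 35.2 with both Foxd1 copies, 33.7 and 692 with 1 copy, and 623 and 848 with none, so this marker varied within Foxd1+/+ and Foxd1+/-. The fibroblast marker Col1a1 lay between 4368 and 7143 and the leukocyte marker Ptprc between 41.0 and 49.1. The lowest intensity of any gene was 19.5 and the median of an array 76.5 to 79.6. Ptprc does not stand for all leukocyte markers, since 10 such markers, Ptprc among them, together read 1762 to 2965 on an array. In a mixed culture fewer dividing cells and less transcript per cell cannot be told apart.

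Promoters are shown for 6 members to set windows with and without E2F letters beside the genes that vary most and least. RefSeq (build GRCm38.p6) gave a window of 250 bases before to 50 bases after the start of transcription for 31 of the 36 members. Mcm4, Gins1, Gins2, Pole and Ccne2 had no entry. The letters searched, as a rendering of the E2F site, were TTTCCCGC, TTTCGCGC, TTTGCCGC and TTTGGCGC on either strand, with overlapping matches counted separately. They are in capitals in the sequences, which run 5′ to 3′ on the gene's own strand. Mcm5 (chr8:75109259-75109558, plus strand) holds 2 overlapping matches and Mcm6 (chr1:128359656-128359955, minus strand) holds 3. Pola1 (chrX:93632106-93632405, minus strand), whose Foxd1-/- arrays were both below all others, holds 1. Rfc3 (chr5:151651159-151651458, minus strand), the member that varied least, holds 2. Rrm1 (chr7:102441445-102441744, plus strand) and Rrm2 (chr12:24708004-24708303, plus strand), the members with the smallest p between Foxd1-/- and Foxd1+/+ and with the largest range over arrays, hold none and are in lower case throughout.
Mcm5: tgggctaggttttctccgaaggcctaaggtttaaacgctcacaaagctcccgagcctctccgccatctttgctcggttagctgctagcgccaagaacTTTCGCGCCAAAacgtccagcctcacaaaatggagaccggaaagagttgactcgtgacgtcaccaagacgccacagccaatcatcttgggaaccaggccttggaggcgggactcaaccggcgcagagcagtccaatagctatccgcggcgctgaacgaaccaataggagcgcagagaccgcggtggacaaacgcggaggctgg
Mcm6: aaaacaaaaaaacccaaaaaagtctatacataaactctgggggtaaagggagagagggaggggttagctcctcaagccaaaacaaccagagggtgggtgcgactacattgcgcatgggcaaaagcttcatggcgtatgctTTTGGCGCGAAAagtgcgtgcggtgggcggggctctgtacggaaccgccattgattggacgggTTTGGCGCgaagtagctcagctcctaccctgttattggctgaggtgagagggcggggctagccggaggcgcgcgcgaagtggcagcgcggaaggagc
Pola1: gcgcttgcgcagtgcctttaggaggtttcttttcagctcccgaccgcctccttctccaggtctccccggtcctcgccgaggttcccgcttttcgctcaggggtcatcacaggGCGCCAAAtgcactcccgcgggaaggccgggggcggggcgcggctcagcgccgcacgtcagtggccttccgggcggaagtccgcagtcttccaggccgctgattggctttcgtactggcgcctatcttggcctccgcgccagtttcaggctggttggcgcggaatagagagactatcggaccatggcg
Rfc3: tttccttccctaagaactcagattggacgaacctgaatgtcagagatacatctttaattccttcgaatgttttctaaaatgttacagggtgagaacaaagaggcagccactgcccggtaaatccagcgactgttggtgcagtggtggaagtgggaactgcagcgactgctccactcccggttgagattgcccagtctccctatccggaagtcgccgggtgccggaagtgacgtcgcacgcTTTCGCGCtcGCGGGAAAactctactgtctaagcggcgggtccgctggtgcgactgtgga
Rrm1: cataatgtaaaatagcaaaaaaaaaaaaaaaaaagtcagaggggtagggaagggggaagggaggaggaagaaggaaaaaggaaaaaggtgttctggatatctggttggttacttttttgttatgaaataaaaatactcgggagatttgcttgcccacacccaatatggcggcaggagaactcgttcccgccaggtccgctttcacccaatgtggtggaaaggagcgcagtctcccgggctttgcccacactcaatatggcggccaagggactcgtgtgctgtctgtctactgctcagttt
Rrm2: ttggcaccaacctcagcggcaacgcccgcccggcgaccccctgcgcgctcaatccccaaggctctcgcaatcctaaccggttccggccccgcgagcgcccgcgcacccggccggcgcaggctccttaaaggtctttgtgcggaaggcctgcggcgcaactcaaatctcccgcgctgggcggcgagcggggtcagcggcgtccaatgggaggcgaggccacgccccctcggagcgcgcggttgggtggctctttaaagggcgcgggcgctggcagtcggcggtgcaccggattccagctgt

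The E2F letters were in at least 1 window of 14 of the 31 members (45.2%), against 543 of the 15614 measured genes with an entry (3.48%) and 2.26% of all 32851 windows. CCAAT, the core of the NF-Y site, on either strand was in 19 of the 31 members (61.3%) and in 41.7% of the measured genes. TTTGAA, a letter string of the cell cycle homology region of late cell cycle genes, searched on both strands, was in 4 members (12.9%) and in 17.3% of the measured genes. The 4 members with more than 1 entry counted as holding a motif if any window did. Members with the E2F letters had a median log2 difference of -0.22 between Foxd1-/- and Foxd1+/+ (n = 14) and those without them -0.16 (n = 17), with ranges of -0.35 to -0.012 and -0.38 to -0.059 that largely cover each other. A match is a stretch of letters and does not show that a factor binds there.

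Loss of both Foxd1 copies was compared first. All 36 members read lower in Foxd1-/- than in Foxd1+/+, where 48.3% of all genes did, by a median of -0.18 on the log2 scale against 0.0032 for all genes. The largest differences were those of Rrm2 (-0.38 ± 0.37), Rrm1 (-0.37 ± 0.11), Ccne2 (-0.35 ± 0.28) and Pola1 (-0.35 ± 0.15; SE, n = 2 arrays per genotype), and the smallest was that of Rfc3 (-0.012 ± 0.092). On a linear scale these run from 1.30-fold lower for Rrm2 to 1.01-fold lower for Rfc3. Both Foxd1-/- arrays lay below both Foxd1+/+ arrays for 2 of 36 members, Rrm1 and Pola1, and for 12.1% of all genes. No member passed: limma called 0 of 19938 genes (0%) after Benjamini-Hochberg adjustment at 0.05, with a smallest adjusted p of 0.99985, and 0 (0%) with replicate number as a block, where the smallest was 0.49. Foxd1 itself, 7.4-fold lower (-2.89 ± 0.41), was not called either (limma adjusted p = 0.99985, and 0.49 with the block). A gene that fails this test may therefore still differ between the genotypes. At an unadjusted p under 0.05 there was 1 member, Rrm1, among 421 genes, and with the block 7 members among 1503 genes.

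The members' levels stood apart on 1 array. Their mean log2 level, taken relative to the 6 arrays, was 0.21 and -0.10 with both Foxd1 copies, 0.15 and 0.0071 with 1 copy, and 0.11 and -0.37 with none. Foxd1-/- replicate 2 thus stood below the other 5 arrays, and it gave the lowest value of 32 members, where it did so for 22.6% of all genes. The exceptions were Orc1, lowest on Foxd1+/- replicate 2, and Gins1, Gins2 and Rfc3, lowest on Foxd1+/+ replicate 2. Foxd1+/+ replicate 1 gave the highest value of 22 members, and of 15.5% of all genes. Without Foxd1-/- replicate 2 only 5 members were lower in Foxd1-/- and the median turned to 0.062, and without Foxd1+/+ replicate 1 23 members were lower. Each of these leaves the replicate numbers unequal between the genotypes. Among arrays of replicate 1 alone, Foxd1-/- was lower than Foxd1+/+ for 31 members by a median of -0.093, and among arrays of replicate 2 for 32 members by a median of -0.27, with 27 lower in both.

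**Figure D1:**
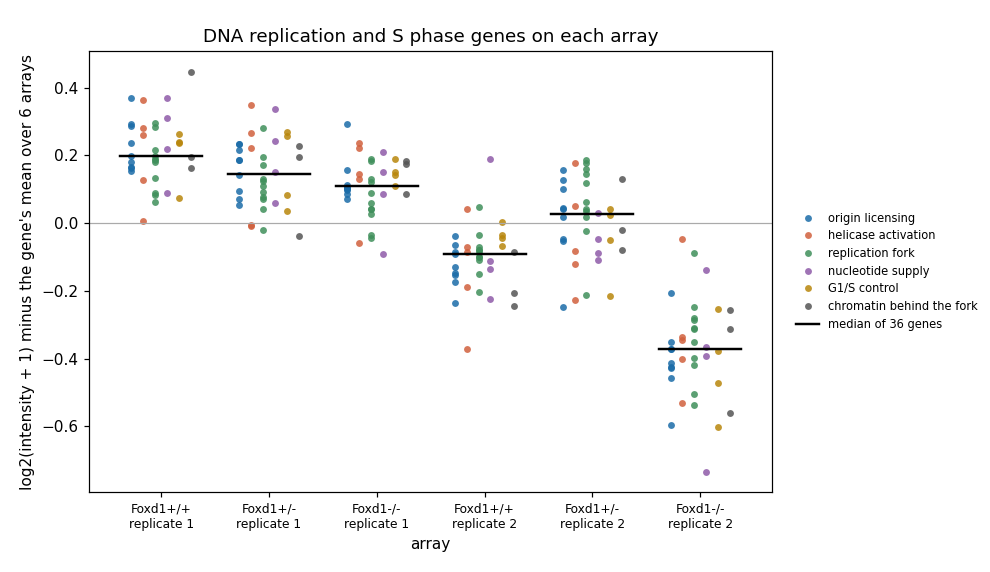
Each point is 1 of the 36 genes on 1 array, as log2(intensity + 1) minus that gene's mean over the 6 arrays, coloured by role, with a black bar at the median of the genes. Replicate 1 arrays stand to the left and replicate 2 arrays to the right, and all 36 genes lie below their own mean on Foxd1-/- replicate 2 and above it on Foxd1+/+ replicate 1.

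In the account by role, figures in brackets are log2 differences ± SE between Foxd1-/- and Foxd1+/+ with n = 2 arrays each, and none of them passed. Their SEs are from the fit without the replicate block, which does not pair the arrays by number. Origin licensing genes were lower in Foxd1-/- in 9 of 9 members, by a median of -0.18. Mcm6, a subunit of the helicase ring whose promoter window holds 3 of the E2F letter matches, read 991 and 860.5 on the Foxd1+/+ arrays, 928 and 985 for Foxd1+/-, and 928 and 656 for Foxd1-/-, a difference of -0.24 ± 0.18. The first 5 of these lay within 860.5 to 991 and the last stood apart below them. Mcm7, another ring subunit, read 891 and 688 with both Foxd1 copies, 779 and 706 with 1 copy, and 783 and 572 with none (-0.23 ± 0.20), with Foxd1+/+ replicate 1 highest and Foxd1-/- replicate 2 lowest. The same order of extremes held for Mcm4, at 605 and 516 with both Foxd1 copies, 595 and 547 with 1 copy, and 584 and 417 with none (-0.18 ± 0.18). For Mcm5 the arrays gave 609 and 449 with both Foxd1 copies, 586 and 479.9 with 1 copy, and 533 and 370.5 with none (-0.24 ± 0.24), and every replicate 2 array was below every replicate 1 array. The 6 ring subunits differed by -0.24 to -0.14. Orc1, the subunit of the origin recognition complex that the cell cycle regulates, had intensities of 74.2 and 48.5 with both Foxd1 copies, 67.6 and 48.1 with 1 copy, and 60.8 and 49.5 with none, below the median of each array. Its 3 replicate 2 values lay within 48.1 to 49.5 whatever the genotype, and its difference was -0.13 ± 0.27, with an SE of 0.089 under the replicate block. The remaining 4 licensing members had their lowest value on Foxd1-/- replicate 2: 141 to 262 over the arrays for the loader Cdc6, 228 to 369 for the loader Cdt1, 641 to 941 for Mcm2 and 521 to 789 for Mcm3. Cdc6 was highest on the other Foxd1-/- array, so this genotype held both of its extremes.

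All 5 helicase activation genes read lower in Foxd1-/- than in Foxd1+/+, with a median of -0.16. Mcm10, which helps to start the loaded helicase, read 230.2 and 179 on the Foxd1+/+ arrays, 221 and 174 for Foxd1+/-, and 223 and 131 for Foxd1-/- (-0.25 ± 0.30). Cdc45, a part of the active helicase, read 298 and 218 with both Foxd1 copies, 299 and 234 with 1 copy, and 274 and 188 with none (-0.16 ± 0.26). In both genes the replicate 1 arrays were high and the replicate 2 arrays low in every genotype. The GINS subunits among the members, which lock the ring in its active form, did not share a pattern. Gins3 was level on 5 arrays and lower on the last, at 187 and 176 with both Foxd1 copies, 170.3 and 177 with 1 copy, and 187 and 135 with none (-0.19 ± 0.16). Gins2 gave 227 and 215 with both Foxd1 copies, 224 and 255 with 1 copy, and 217 and 218 with none and differed by -0.020 ± 0.081, with its highest value on Foxd1+/- replicate 2. Gins1, shown because of its values by replicate, split cleanly into replicate 1 and replicate 2, at 172 and 103 with both Foxd1 copies, 169.8 and 114 with 1 copy, and 155 and 105 with none. Its genotype difference was -0.054 ± 0.36, with an SE of 0.069 under the replicate block. Gins4, a GINS subunit outside the members, also split by replicate, at 392 and 317 with both Foxd1 copies, 390 and 313 with 1 copy, and 364 and 292 with none. Subunits of 1 complex therefore ranged from 1.19-fold (Gins2) to 1.67-fold (Gins1) between their highest and lowest arrays.

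At the fork, 11 of 11 members were lower in Foxd1-/- than in Foxd1+/+, by a median of -0.16. Pola1, the catalytic subunit of the polymerase that starts each strand with primase, read 289 and 263 on the Foxd1+/+ arrays, 262 and 289 for Foxd1+/-, and 247 and 190.1 for Foxd1-/-. Both Foxd1-/- arrays were below the other 4, and the difference of -0.35 ± 0.15 did not pass (limma adjusted p = 0.99985, 0.65 to 1.0 over the alternatives tried). The gene lies on the X chromosome, and Xist was low on 1 array each of Foxd1+/+ and Foxd1+/- and on neither Foxd1-/- array. The part of Xist status in the Pola1 difference was not tested. Pole, the catalytic subunit of the leading strand polymerase, gave 290.2 and 236 with both Foxd1 copies, 269.5 and 283 with 1 copy, and 247 and 203 with none (-0.22 ± 0.14). Pold1, its counterpart on the lagging strand, gave 275 and 235 with both Foxd1 copies, 264 and 277 with 1 copy, and 258 and 202 with none (-0.16 ± 0.14). For both polymerases Foxd1-/- replicate 2 was lowest, and Foxd1+/+ replicate 2 lay below Foxd1-/- replicate 1, so the groups overlapped. Rfc4, a subunit of the clamp loader, read 473 and 347 with both Foxd1 copies, 442 and 390.1 with 1 copy, and 397 and 292 with none (-0.25 ± 0.22), and its sister subunit Rfc3 stayed between 314 and 365 on all arrays. The sliding clamp Pcna read 1733 and 1447 on the Foxd1+/+ arrays, 1649.7 and 1503 for Foxd1+/-, and 1591 and 1287 for Foxd1-/- (-0.15 ± 0.14). A further Pcna probe set differed from these by at most 16.4 intensity units on an array. Lig1, the ligase that joins Okazaki fragments, gave 689 and 551 with both Foxd1 copies, 687 and 488 with 1 copy, and 645 and 398 with none (-0.28 ± 0.30), again with all replicate 2 arrays below all replicate 1 arrays. Among the rest, primase subunit Prim1 spanned 194 to 327, clamp loader subunit Rfc5 414 to 597, flap nuclease Fen1 172 to 239 and single strand binding protein Rpa2 227 to 302, each lowest on Foxd1-/- replicate 2.

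Nucleotide supply held the 2 members with the largest differences, and had a median of -0.27 over its 4 genes. Rrm1 is the large subunit of ribonucleotide reductase, the enzyme that makes deoxynucleotides. It read 1947 and 2087 on the Foxd1+/+ arrays, 2032 and 1868 for Foxd1+/-, and 1720.0 and 1419.5 for Foxd1-/-, so both Foxd1-/- arrays were below the other 4. The difference was -0.37 ± 0.11 against Foxd1+/+ (limma adjusted p = 0.99985, 0.59 to 1.0 over the alternatives tried) and -0.32 ± 0.11 against Foxd1+/-. Without Foxd1-/- replicate 2 the difference from Foxd1+/+ shrank to -0.23 for Rrm1 and to -0.16 for Pola1. Rrm2, the small subunit that cells make in S phase, whose window holds no such match, read 1877 and 1321 on the Foxd1+/+ arrays, 1834 and 1404 for Foxd1+/-, and 1679.6 and 872 for Foxd1-/-. Here replicate 2 was lower in each genotype and Foxd1-/- replicate 2 far below the rest, a span of 2.15-fold and the widest of all members. Without that array the Rrm2 difference turned from -0.38 to 0.093. This fit, like those above for Rrm1 and Pola1, sets 1 replicate 1 array against both Foxd1+/+ arrays. Between the replicate 1 arrays alone Rrm2 was still lower in Foxd1-/-, at 1679.6 against 1877. The salvage kinase Tk1 gave 564 and 389 with both Foxd1 copies, 538 and 428 with 1 copy, and 505 and 346 with none (-0.16 ± 0.27), with replicate 2 below replicate 1 throughout. A dimmer Tk1 probe set ranged from 222 to 371 with the same highest and lowest arrays. Tyms, which makes thymidylate, gave 319.6 and 254 with both Foxd1 copies, 286 and 254 with 1 copy, and 291 and 249.5 with none (-0.079 ± 0.15), and its Foxd1-/- replicate 2 value was close to those of the other replicate 2 arrays.

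All 4 G1/S control genes read lower in Foxd1-/- than in Foxd1+/+, with a median of -0.24. Ccne2, a cyclin E that activates Cdk2, read 137 and 116 on the Foxd1+/+ arrays, 139 and 112 for Foxd1+/-, and 129 and 75.9 for Foxd1-/- (-0.35 ± 0.28), and its low value came from Foxd1-/- replicate 2 alone. Ccne1, the other cyclin E, read 444 and 361 with both Foxd1 copies, 446 and 318 with 1 copy, and 422 and 266 with none (-0.26 ± 0.29), with all replicate 2 arrays below all replicate 1 arrays. Dtl, which marks Cdt1 for destruction during S phase, gave 302 and 248 with both Foxd1 copies, 263 and 264 with 1 copy, and 277 and 197 with none (-0.23 ± 0.19). E2f1, the transcription factor that opens the programme, had a small difference, at 241 and 218 with both Foxd1 copies, 242 and 232 with 1 copy, and 252 and 191 with none (-0.059 ± 0.15). Its highest and lowest values were both on Foxd1-/- arrays.

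Of the chromatin genes, Uhrf1, the reader of half-methylated DNA that keeps methylation through replication, read 1049 and 649 on the Foxd1+/+ arrays, 882 and 758 for Foxd1+/-, and 874 and 521 for Foxd1-/- (-0.29 ± 0.34). Its span of 2.01-fold was the second widest of the members. Chaf1a and Chaf1b are subunits of the histone chaperone that follows the clamp. Chaf1a gave 265 and 201 with both Foxd1 copies, 272 and 219 with 1 copy, and 262 and 187 with none (-0.063 ± 0.23). For Chaf1b the values were 361 and 304 with both Foxd1 copies, 313 and 352 with 1 copy, and 342 and 269.6 with none (-0.12 ± 0.15), with Foxd1+/- replicate 2 near the top, where the Chaf1a value of that array was among the 3 low ones.

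Foxd1-/- was next set against Foxd1+/-, a comparison that shares its Foxd1-/- arrays with the previous one. All 36 members were again lower in Foxd1-/- (51.4% of all genes), by a median of -0.20. The groups separated for 5 of 36 members, where 13.7% of all genes did so in this direction. The share of members is thus near that of all genes. The 5 were Pola1 (-0.34 ± 0.15), Pole (-0.30 ± 0.14), Pold1 (-0.25 ± 0.14), Rrm1 (-0.32 ± 0.11) and Gins2 (-0.14 ± 0.081; SE, n = 2 arrays per genotype). limma called 0 of 19938 genes (0%), with 460 at an unadjusted p under 0.05, and 0 (0%) with the replicate block. Within replicate 1 the difference was small: 23 members were lower and the median was -0.036. Within replicate 2 it was larger, with 35 lower and a median of -0.39. Without Foxd1-/- replicate 2, which leaves the replicate numbers unequal, 10 members were lower and the median turned to 0.044.

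Loss of 1 copy gave no common direction. Between Foxd1+/- and Foxd1+/+, 13 of 36 members were lower (48.4% of all genes) and the median was 0.032. The differences ran from -0.089 for Lig1 to 0.14 for Rfc5. In 0 of 36 members did both Foxd1+/- arrays lie below both Foxd1+/+ arrays (8.00% of all genes), and limma called 0 of 19938 genes (0%), also with the block (0%). The 2 replicate numbers disagreed, with 27 members lower in Foxd1+/- within replicate 1 (median -0.055) and 6 within replicate 2 (median 0.13). Without Foxd1+/+ replicate 2, 32 members were lower, and without Foxd1+/+ replicate 1, 2 were, each time with replicate numbers unequal between the genotypes.

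**Figure D2:**
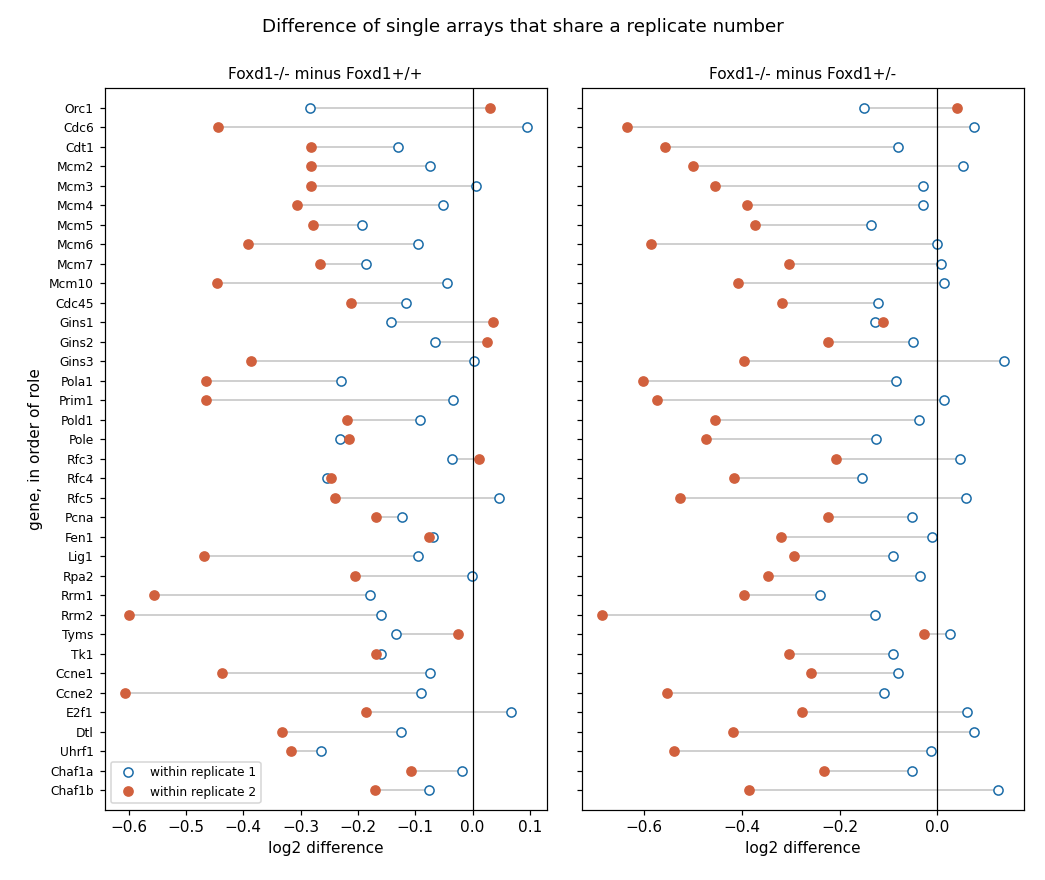
For each gene the open circle is the log2 difference between the 2 arrays numbered 1 and the filled circle that between the 2 arrays numbered 2, on the left for Foxd1-/- minus Foxd1+/+ and on the right for Foxd1-/- minus Foxd1+/-. Most filled circles lie further below 0 than the open ones, which gather near 0 on the right, where 23 of 36 are below it.

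The replicate arrays were compared across genotypes, since all 3 share the numbers 1 and 2. In a fit with genotype and replicate number, 35 of 36 members were lower in replicate 2, where 50.7% of all genes were, by a median of -0.31, and Gins2 was the exception (0.040 ± 0.066). Replicate 2 was lower in all 3 genotypes for 24 of 36 members and for 22.8% of all genes. limma called 9 of 36 members, all lower in replicate 2, and 8.84% of all genes in either direction. The labels do not say what the number marks. The called members came from every role. Gins1 fell by 0.62 ± 0.056 (SE, limma adjusted p = 0.0096) and Cdc45 by 0.45 (limma adjusted p = 0.019) among the helicase activators. Mcm5 fell by 0.42 (limma adjusted p = 0.026) and Orc1 by 0.46 (limma adjusted p = 0.030) in the licensing group. Lig1 was called at the fork (-0.50 ± 0.081, limma adjusted p = 0.032). Tk1 (-0.47 ± 0.062, limma adjusted p = 0.021) and Rrm2 (-0.61 ± 0.12, limma adjusted p = 0.046) were called in nucleotide supply. The last were Ccne1 (-0.48 ± 0.080, limma adjusted p = 0.033) in G1/S control and Chaf1a (-0.40 ± 0.054, limma adjusted p = 0.022) in chromatin. In each of these 9 genes all 3 genotypes were lower in replicate 2. The alternatives counted next either change the processing with all arrays kept or leave out 1 array, for each array in turn. Leaving out either array of a genotype gives the same replicate estimate, so such alternatives are not separate checks. Gins1 passed in 11 of 13 alternatives (limma adjusted p of 0.0040 to 0.084) and Orc1 in 5 of 12 (0.016 to 0.096), with the other 7 genes at 7 to 9 of 13 (0.0074 to 0.16).

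The size of the replicate difference varied with genotype. Its median over the members was -0.29 in Foxd1+/+ (35 members lower), -0.13 in Foxd1+/- (25 lower) and -0.48 in Foxd1-/- (35 lower). With 1 array per genotype and number, this variation has no test. Without either Foxd1-/- array, which leaves that genotype out of the replicate estimate, limma called 0 members and 0 genes, and without either Foxd1+/+ array it called 3 of 36 members and 1202 of 19938 genes. The median stayed below 0 in every such fit, from -0.40 to -0.23.

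**Figure D3:**
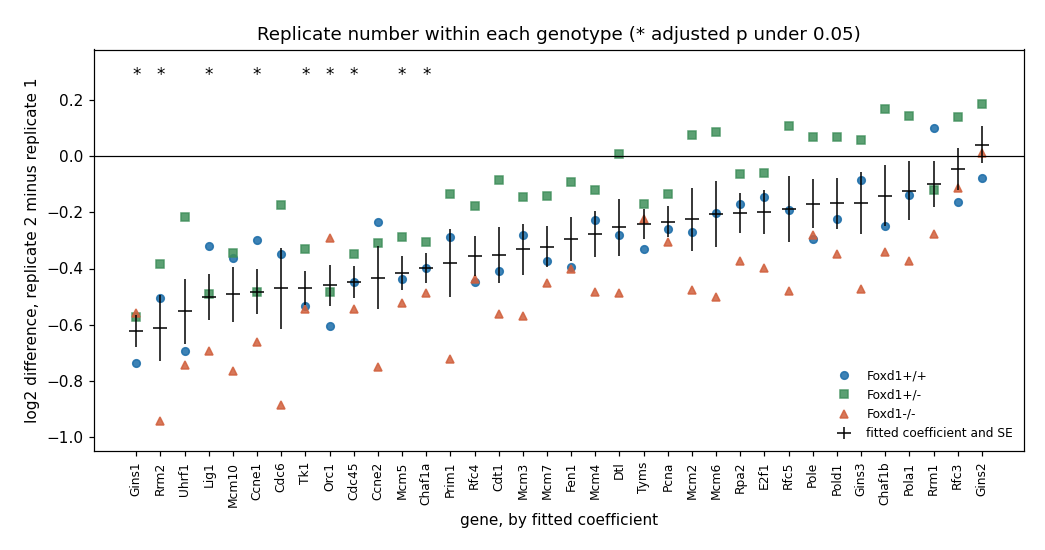
For each gene, symbols give the log2 difference between replicate 2 and replicate 1 within each genotype, and the black bar the coefficient fitted over the 3 genotypes with its SE. The 9 genes with an asterisk passed at an adjusted p of 0.05, and the Foxd1+/- squares lie above 0 for 11 genes.

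The gap between a gene's highest and lowest array had a median of 0.60 on the log2 scale over the 36 members and of 0.23 over all genes. After Rrm2 and Uhrf1 the widest were Cdc6 (1.85-fold) and Ccne2 (1.82-fold), and the narrowest were Gins2 (1.19-fold) and Rfc3 (1.16-fold).

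Other genes of the same processes were read from further lists. Of 12 other licensing and firing genes 12 were lower in Foxd1-/- than in Foxd1+/+ (median -0.19), with the firing kinase Cdc7 at -0.36 ± 0.12, its activator Dbf4 at -0.31 ± 0.26, and origin recognition subunits Orc2 at -0.29 ± 0.15 and Orc3 at -0.068 ± 0.056. Of 21 other fork genes 17 were lower (median -0.12), among them the checkpoint adaptor Clspn (-0.28 ± 0.12), the clamp loader factor Dscc1 (-0.43 ± 0.19), the polymerase epsilon subunit Pole4 (-0.17 ± 0.084) and the fork protein Wdhd1 (-0.23 ± 0.16). Of 13 other G1/S genes 11 were lower (median -0.16). They included the Cdk2 phosphatase Cdc25a (-0.37 ± 0.11), E2f3 (-0.29 ± 0.091), Cdk6 (-0.16 ± 0.070) and the ubiquitin ligase subunit Skp2 (-0.38 ± 0.18). All 7 other chromatin genes were lower (median -0.20), such as the remodeller Hells (-0.29 ± 0.30), Atad2 (-0.20 ± 0.21) and the histone chaperones Asf1b (-0.20 ± 0.22) and Nasp (-0.17 ± 0.19). None of these genes passed between genotypes. In replicate 2 against replicate 1 limma called 6 of 12, 4 of 21, 3 of 13 and 1 of 7 genes of these lists in that order, where it called 8.84% of all genes, all lower in replicate 2 except the cyclin Ccnd2 (0.31 ± 0.055).

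Nucleotide supply outside the members was less uniform, with 5 of 6 genes lower (median -0.17). Rrm2b, the reductase subunit that p53 induces outside S phase, read 154 and 158 on the Foxd1+/+ arrays, 125 and 118 for Foxd1+/-, and 126 and 114 for Foxd1-/-. Both Foxd1-/- and both Foxd1+/- arrays were below the Foxd1+/+ arrays (-0.38 ± 0.074 and -0.36 ± 0.074), which set it apart in order from Rrm1 and Rrm2, and it did not pass in limma. Samhd1, which destroys deoxynucleotides, ran the other way at 328 and 524 with both Foxd1 copies, 309 and 517 with 1 copy, and 358 and 1189 with none (0.65 ± 0.65), with its highest value on Foxd1-/- replicate 2. The kinase Dck (-0.33 ± 0.19) and the pyrophosphatase Dctpp1 (-0.21 ± 0.24) were lower in Foxd1-/-. By replicate number limma called 1 gene of the 6, against 8.84% of all genes.

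Inhibitors of entry into S phase had no common direction. Of 9 retinoblastoma family and Cdk inhibitor genes 4 were lower in Foxd1-/- and 5 higher (median 0.041). Cdkn1c, the p57 inhibitor, read 675 and 942 on the Foxd1+/+ arrays, 621 and 1019 for Foxd1+/-, and 965 and 1445 for Foxd1-/- (0.57 ± 0.34), and both Foxd1-/- arrays were above both Foxd1+/+ arrays. The pocket protein Rbl2 differed by 0.16 ± 0.078, Cdkn1b by 0.083 ± 0.071 and Cdkn2c by -0.078 ± 0.11, and none passed. By replicate number limma called Cdkn1c (0.59 ± 0.061, adjusted p = 0.013) and Cdkn2a (0.46 ± 0.043, adjusted p = 0.010) as higher in replicate 2, and Cdkn2d (-0.47 ± 0.072, adjusted p = 0.029) as lower. They are 3 of 9 genes, where 8.84% of all genes were called. Cdkn1a, the p21 inhibitor, was not analysed here.

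Mitotic genes, which dividing cells make after S phase, had the members' direction. All 15 were lower in Foxd1-/- than in Foxd1+/+ (median -0.30) and all 15 in replicate 2 (median -0.39). By replicate number 3 of the 15 were called, against 8.84% of all genes. The topoisomerase Top2a differed by -0.30 ± 0.16 between the genotypes, the checkpoint kinases Bub1b by -0.40 ± 0.24 and Bub1 by -0.48 ± 0.31, and the centromere protein Cenpf by -0.24 ± 0.15.

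Levels of cell state markers are set beside those of the members. The summed intensity of the members was 19636 and 16078 with both Foxd1 copies, 18849 and 17094 with 1 copy, and 18109.5 and 12866 with none. Pluripotency markers were lower in replicate 2 in 10 of 10 genes, and their sums of 3926 and 1657 with both Foxd1 copies, 2729 and 2370.1 with 1 copy, and 2598 and 1436 with none had the same extremes as the members. Fibroblast markers were higher in Foxd1-/- in 8 of 10 genes. Their sums had the reverse extremes, at 28532 and 35862 with both Foxd1 copies, 29973 and 33927 with 1 copy, and 32821 and 38357 with none. Interferon response genes were higher in Foxd1-/- in 13 of 13 genes (median 1.05) and in replicate 2 in 13 of 13 (median 1.39, with 7 called). Over all genes, 48.3% were lower in Foxd1-/- than in Foxd1+/+ and 50.7% in replicate 2, and limma called 8.84% by replicate number. The sums of the interferon response genes were 1983 and 3765 with both Foxd1 copies, 1674 and 6688 with 1 copy, and 3646 and 9340.5 with none. Foxd1-/- replicate 2, lowest for the members, was thus highest for these genes. Leukocyte markers were lower in Foxd1-/- in 9 of 10 genes. Their sums were 2718 and 2510.0 with both Foxd1 copies, 2965 and 2219.5 with 1 copy, and 2043 and 1762 with none. Ptprc and Cd14 stayed under 50 on all arrays, so most of each sum came from other genes of the list. Whether leukocytes were present was not tested. Of 8 epithelial markers 5 were lower in Foxd1-/-, with sums of 1775 to 2261. Of 6 endothelial markers 4 were lower, with sums of 1068 to 1203 and Pecam1 alone at 35.7 to 40.8. The part of these markers in the replication gene differences was not tested.

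**Figure D4:**
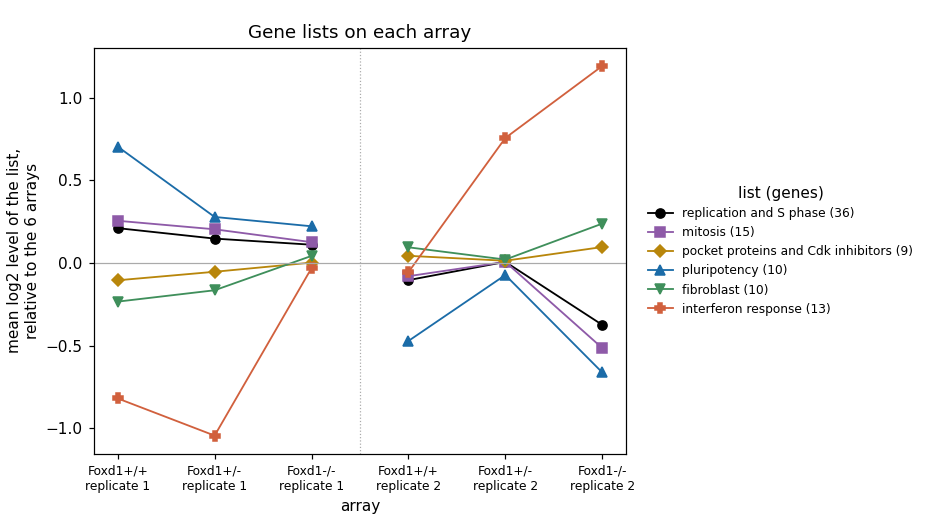
Each line joins the mean log2 level of a gene list on the arrays of 1 replicate number, relative to the list's mean over the 6 arrays, with the number of genes in brackets. Replication and S phase genes and mitotic genes run together and end lowest on Foxd1-/- replicate 2, where the interferon response list is highest.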

How the data were processed

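Total RNA of infected mouse embryonic fibroblasts gave biotin-labelled material that was hybridised to 6 Affymetrix arrays, per the labels' protocols. The authors deposited 1 linear intensity per array for each of 28856 probe sets. How they corrected background, normalized and summarised probes is not stated in the labels, and no detection call was used, so the signal of dim genes over background is unknown. Of the probe sets, 21789 carried 1 symbol in the platform annotation, 1621 several and 5446 none. Those with 1 symbol were kept, with the highest-mean probe set per gene (19938 genes), and symbols were checked against RefSeq by Entrez identifier (21698 matched, 0 changed).

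The tests used log2(intensity + 1), a scale on which dim genes differ less, with lmFit and eBayes of limma 3.58.1 (R 4.3.3) on all 6 arrays, 1 mean per genotype, and Benjamini-Hochberg adjustment over all genes at 0.05. A further fit held genotype and replicate number. The number of arrays limits the precision: p-values reflect how far these arrays spread, which may be technical, and an exact test of 2 against 2 cannot go below 0.333. Differences between replicate 1 and 2 correlated across genes between genotypes (r of 0.55, 0.73 and 0.73). Arrays of 1 number were therefore paired in the replicate block and the differences within a number, on the data's evidence alone. The genotype SEs and p-values are from the fit without the block, and so leave out this pairing, unless the block is named. For Mcm5 the SE was 0.24 without the block and 0.076 with it, and the gene passed in neither fit. The alternatives were a replicate block, other pseudocounts (0 and 32), centring, quantile normalization, eBayes with its trend and robust options together, a filter at a mean log2 of 6, the mean of probe sets, only the arrays compared, and each array or number left out. The fit was tested on simulated data with independent noise, where the genotype comparison held no replicate effect. That checks the code and does not show how large a change these arrays can reveal.

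The members and lists were chosen with earlier results of these data known, so no test was made over them. All 6 values were given for up to 4 members per role with the smallest p between Foxd1-/- and Foxd1+/+ and for members opposing their role's median in any comparison. Up to 4 genes of each further list were named by the same p. Genes named for their replicate difference (Gins1, Gins4, Ccnd2, Cdkn2a, Cdkn2d), for their range or as cell markers were picked after their values were seen. Figures were drawn with matplotlib 3.10.9.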

Additional observations from a re-analysis of the deposited data

How the results depend on the processing

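Among the 4 comparisons, the member medians kept their direction and the counts of members lower stayed within 1.5 times of the values above under the replicate block and under every change of pseudocount, normalization, filter, probe set rule and array choice that kept all arrays of the groups compared. With 1 array or 1 replicate number left out, members lower ranged from 5 to 36 for Foxd1-/- against Foxd1+/+ (medians -0.43 to 0.062), from 10 to 36 for Foxd1-/- against Foxd1+/- (-0.46 to 0.044) and from 2 to 32 for Foxd1+/- against Foxd1+/+ (-0.12 to 0.17). For replicate number they ranged from 34 to 36 (-0.40 to -0.23), with 0 to 1387 genes called in place of 1763 and 0 to 11 members called in place of 9. The count of members called was 15 with each array centred on its median (1844 genes in all), 14 with the trend and robust options of eBayes together (2154 genes) and 5 with a pseudocount of 32 (1375 genes). The cause of these changes was not tested. Leaving out 1 array leaves replicate numbers unequal between genotypes, and with replicate numbers left out each genotype has 1 array and no test. With the replicate block limma called 0 genes in each of the 3 genotype comparisons, as without it.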
